A study of Mus musculus with 42 samples.

Results

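Late recovery comprises the 3 NIH3T3 total RNA 3′READS libraries taken 8, 12 and 24 h after a 1 h arsenite stress (RC8, RC12 and RC24), 3 of the 42 samples of the series, each set against the non-treated library (NT) of the same label set. They were chosen by their labels alone. NIH3T3 is a mouse embryonic fibroblast line. NT cells were grown in normal medium, and the recovering cells received 250 µM sodium arsenite for 1 h (AS), were washed and were returned to normal medium. The AS library and the library at 4 h of recovery (RC4) of the same set are given for orientation. The question was which genes had returned to the NT level at each time, in abundance and in 3′UTR isoform, and which still differed at 24 h.

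There was 1 library at each time, and the NT cells were taken at 0 h only. Hours in culture after the medium change and hours of recovery from arsenite therefore cannot be told apart. The libraries held 1493122 PAS reads in NT, 1589189 at RC8, 1766682 at RC12 and 1048335 at RC24, so RC24 was the shallowest of the 4, and 80.0 to 81.0% of the reads lay in 3′UTR PASs. NT libraries of the other label sets are poor stand-ins for the missing replicates. Of 5935 genes, 43.5% and 44.8% were at least 2-fold from the NT of this set in NT replicates 1 and 2, and 36.0% were at least 2-fold apart between those 2 libraries. All 9 fibroblast markers had reads in each of the 4 libraries, while no epithelial marker had any read. The fibroblast markers summed to 8492 RPM (normalised reads per 1000000) in NT, 5606 at RC8, 5389 at RC12 and 8014 at RC24. S100a4 alone made up 4573 RPM of this in NT and 2221 at RC8. In RNA from a whole culture, fewer cells of a kind and less RNA per cell cannot be told apart.

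Arsenite binds thiol groups and causes oxidative and proteotoxic stress. Cells answer it with HSF1, which drives chaperone genes, with NRF2, which drives antioxidant genes, with MTF1, which drives metallothioneins, and with phosphorylation of eIF2α, which slows translation and favours ATF4 target genes. Many mRNAs can also end at a proximal (pPAS) or a distal polyadenylation site (dPAS) of the same 3′UTR. The stretch between the sites is the alternative 3′UTR (aUTR), which can hold elements that affect decay, translation or localization.

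A 3′READS read runs up to the poly(A) tail, so that its end marks the PAS of the transcript. The 30 bases that end at each PAS are shown for 4 genes whose isoform shares are described further on. In Ube2q1, Timp2 and Nmt1 the shares differed from NT at RC8 and were nearer to it at RC12. Ccnd1 was chosen for a difference at RC24. The sequences are from mm9, 5′ to 3′ on the gene's strand, with AATAAA, the main polyadenylation signal, in capitals.
Nmt1 pPAS, chr11:102927390-102927419 (+): tgaatAATAAAagtatatatattatatata
Nmt1 dPAS, chr11:102930197-102930226 (+): cttgtttctAATAAAggaagttcaacggtc
Timp2 pPAS, chr11:118164903-118164932 (-): aacagcatgAATAAAacatcaatcatccaa
Timp2 dPAS, chr11:118162375-118162404 (-): atggacAATAAAccatattatcaaagagaa
Ube2q1 pPAS, chr3:89586637-89586666 (+): gggaaaacaattacagtttgttaatttgaa
Ube2q1 dPAS, chr3:89587893-89587922 (+): gtttggctctAATAAActtatttaaagaaa
Ccnd1 pPAS, chr7:152118385-152118414 (-): tgttaccagaagaggaagttttgttctctt
Ccnd1 dPAS, chr7:152115836-152115865 (-): aatctagaaAATAAAattggtaaaatctca
The dPAS of all 4 genes carried AATAAA in these bases, whereas the pPAS of Ube2q1 and Ccnd1 had neither AATAAA nor ATTAAA there. The Timp2 and Ube2q1 dPASs lay past the annotated gene end.

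Gene abundance was the sum of reads at the 3′UTR PASs of a gene, scaled between libraries by median ratios and given as RPM. These values are read within a gene, because some genes known for abundant mRNAs had few reads in this assay. A gene was counted as higher or lower when it was at least 2-fold from NT with a 95% counting interval of the log2 ratio that excluded 0, and as back when it was within 1.5-fold. Such intervals cover counting error and not the spread between cultures.

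Fewer genes were away from NT at each later time. Of 5935 genes, 225 were higher and 210 lower at RC8 (3.79% and 3.54%), 93 were higher and 123 lower at RC12 (1.57% and 2.07%), and 59 were higher and 82 lower at RC24 (0.994% and 1.38%). By contrast, 18.1% of genes had been at least 2-fold away at RC4 (8.8% higher and 9.27% lower). The genes within 1.5-fold of NT made up 60.3% at RC4, 75.5% at RC8, 84.4% at RC12 and 87.3% at RC24. Scaled by total PAS reads instead of median ratios, the higher genes made up 62.3% and not 51.7% of those called at RC8, and 51.7% and not 41.8% at RC24. Among genes with a mean of at least 50 RPM, 93 were higher and 117 lower at RC8, 33 and 64 at RC12, and 10 and 23 at RC24.

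Most genes that were away from NT at RC8 were not so at RC24. Of the 225 genes higher at RC8, 72 were also higher at RC12, 24 at RC24, and 145 were within 1.5-fold of NT at RC24. Of the 210 genes lower at RC8, 78 were also lower at RC12, 27 at RC24, and 138 were within 1.5-fold at RC24. Among the 3 late times, 28 of the 59 genes higher at RC24 and 49 of the 82 lower ones were called at RC24 alone. Of the 59, 24 (40.7%) were also higher at RC8, against 3.79% of all genes. Of the 82, 27 (32.9%) were also lower at RC8, against 3.54% of all genes. All these calls share the same NT library. Only 16 genes were higher and 19 lower at all 3. The late libraries were also compared directly, with no NT library involved. RC24 and RC8 were at least 2-fold apart for 402 genes (6.77%), RC24 and RC12 for 197 (3.32%), and RC12 and RC8 for 93 (1.57%).

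**Figure D1:**
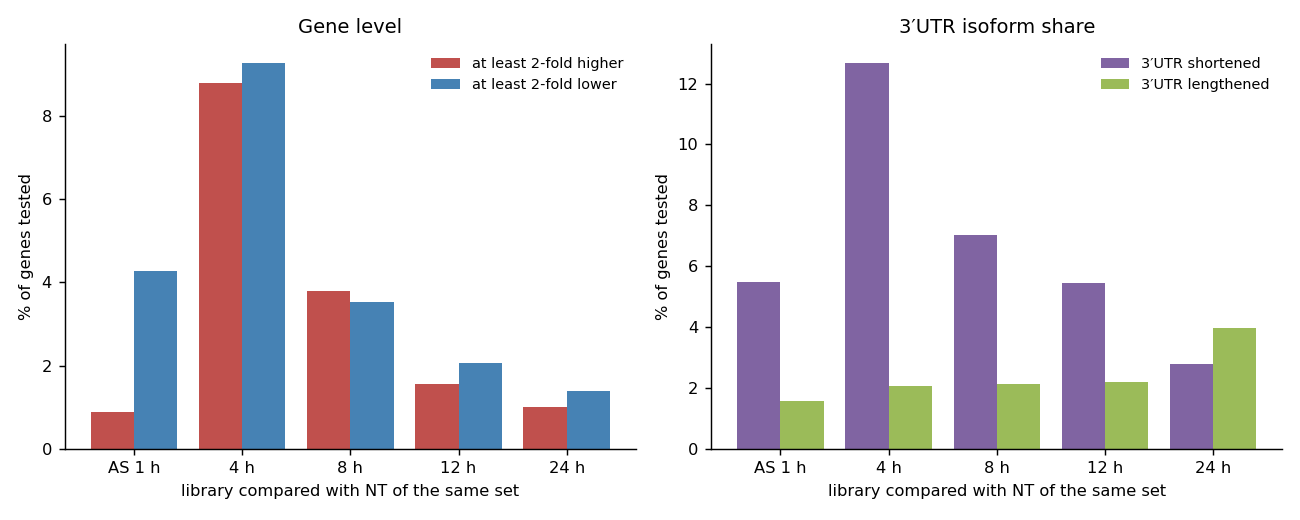
Percentage of genes called against NT replicate 4 (y axis) by time after arsenite (x axis), for gene abundance (higher and lower) and for 3′UTR isoforms (shortened and lengthened), with 1 library at each time. Abundance calls go from 18.1% at RC4 to 2.38% at RC24, and at RC24 the lengthened 3′UTRs (3.96%) exceed the shortened ones (2.78%).

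With a spread estimated from the replicated NT and AS libraries, few of these differences passed a test. edgeR (quasi-likelihood test over the 10 total RNA libraries, label set as a block, Benjamini-Hochberg adjusted) assumes that each lone late library varies like NT and AS libraries do. It called 4 of 9354 genes (0.0428%) higher at RC8, which were Hgsnat, Hsph1, Ggct and Tubb2a, and none lower. Its calls at RC8 became 29 higher and 13 lower without NT replicate 4, 23 and 35 without AS replicate 4, and 13 and 7 without NT or without AS replicate 2. At RC12 and RC24 it called 0 genes, with 774 and 568 genes at an unadjusted p under 0.05. DESeq2 on the same libraries called 122 genes higher and 158 lower at RC8 (1.44% and 1.87%), 34 and 60 at RC12 (0.421% and 0.742%), and 4 and 11 at RC24 (0.208% and 0.573% of the 1919 genes that its filter left).

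The antioxidant genes were among the slowest of the stress genes to come back. Of 20 NRF2 targets measured, 9 were higher at RC4, 7 at RC8, 2 at RC12 and 0 at RC24, and none was lower at any of these times. Their median log2 ratio was 0.81, 0.71, 0.19 and -0.01, against -0.04 to 0.00 over all genes. Hmox1 (heme oxygenase 1, chr8:77617490-77624495, + strand) was at 241 RPM in NT, 12556 at RC4, 1054 at RC8, 184 at RC12 and 121 at RC24. It was still 4.37-fold above NT at RC8 (log2 2.13, interval 1.94 to 2.32) and stood below NT afterwards, at -1.0 (-1.34 to -0.67) at RC24. Srxn1, which repairs oxidized peroxiredoxins, was at 139.9 RPM in NT, 1551 at RC4, 399 at RC8, 149.7 at RC12 and 108 at RC24. Gclm, a subunit of the enzyme that limits glutathione synthesis, was at 493, 1646, 1081, 563 and 296 RPM in the same order. Both were high at RC8 and within 1.5-fold of NT at RC12.

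The members that were still high at RC12 were Prdx1 and Gsta4. Prdx1, a peroxide-reducing peroxiredoxin, was at 4306 RPM in NT, 10968 at RC4, 9635 at RC8, 10017 at RC12 and 5030.2 at RC24. It held a plateau from 4 to 12 h, with a log2 ratio of 1.22 (1.17 to 1.26) at RC12, and was at 0.22 (0.17 to 0.28) at RC24. Gsta4, a glutathione transferase that detoxifies lipid aldehydes, was at 46.9, 102, 138, 149.7 and 52.9 RPM, highest at RC12 (log2 1.67, interval 1.24 to 2.13). At RC24 it was at 0.17 (-0.43 to 0.77). The RC12 ratio of Gsta4 turned to -1.27 against NT replicates 1 and 2 summed.

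Chaperone genes as a group returned earlier, with a median log2 ratio of 1.63 at RC4 and 0.33 at RC8. Of 21 HSF1 target chaperones, 13 were higher at RC4, 4 at RC8, 2 at RC12 and 0 at RC24. Hspa1b, an inducible HSP70, was at 60.6 RPM in NT, 3667 at RC4, 121 at RC8, 32.7 at RC12 and 30.6 at RC24. Dnajb1, an HSP40 co-chaperone of HSP70, was at 114, 1446, 144, 129 and 103 RPM. Thus Dnajb1 was back at RC8 (log2 0.34, interval 0.01 to 0.67), while Hspa1b was 2-fold above NT there (1.00, interval 0.59 to 1.43) and below it at RC24 (-0.99, interval -1.69 to -0.32). Cryab, a small heat shock protein, was slower, at 208, 1160.0, 718, 525 and 179.8 RPM, and was still high at RC12 (log2 1.33, interval 1.12 to 1.55). Hsph1, an HSP110 nucleotide exchange factor and 1 of the 4 edgeR calls (adjusted p = 0.00991), had too few reads for the count of 5935 genes: it was listed at 0 in NT, with 223 reads at RC4, 41 at RC8, 16 at RC12 and 0 at RC24.

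Mt1 and Mt2, metal-binding metallothioneins, had a timing like that of Srxn1 and Gclm. Mt1 was at 1376 RPM in NT, 14419 at RC4, 4437 at RC8, 1763 at RC12 and 992 at RC24, and Mt2 at 604, 8254, 2091, 698 and 618. Both were higher at RC8 (log2 1.69 and 1.79) and within 1.5-fold of NT at RC12 and RC24. The zinc exporter gene listed with them was instead lower at RC8 (log2 -1.22), and within 1.5-fold at RC12 and RC24.

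Hspa4l, an HSP110 family member, went the other way. It was at 554 RPM in NT, 658 at RC4, 235 at RC8, 164 at RC12 and 271 at RC24. It was lower than NT at all 3 late times, with log2 ratios of -1.23 (-1.44 to -1.04), -1.75 (-1.97 to -1.54) and -1.03 (-1.25 to -0.81), and the DESeq2 adjusted p at RC24 was 0.0076 while edgeR gave 0.68. The RC24 ratio of Hspa4l turned to 1.77 against NT replicates 1 and 2 summed.

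The lists of ATF4 and p53 targets had fewer genes called at RC8 than at RC4. Of 20 ATF4 targets, 10 were higher and none lower at RC4, 1 higher and 1 lower at RC8, 1 and 2 at RC12, and 0 and 2 at RC24. Of 10 p53 targets, 5 were higher at RC4 and 1 at RC8. Asns, asparagine synthetase, was the ATF4 target still high, at 10.2 RPM in NT, 59.2 at RC4, 37.4 at RC8, 22.3 at RC12 and 12.9 at RC24. Plk2, a p53-induced kinase, was the p53 target, at 218, 1153, 571, 391 and 259 RPM. Cdkn1a, the p53-induced cell cycle inhibitor p21, was at 556, 1779.6, 774, 657 and 697 RPM, and was within 1.5-fold of NT from RC8 on. Asns had a log2 ratio of 1.87 (0.94 to 2.92) at RC8 and Plk2 one of 1.39 (1.18 to 1.60).

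The ATF4 targets lower at RC24 were Nupr1 and Chac1. Nupr1, a stress-induced chromatin regulator, was at 182 RPM in NT, 436 at RC4, 101 at RC8, 76.6 at RC12 and 65.8 at RC24. Chac1, a glutathione-degrading enzyme, was at 37.5, 145, 36.7, 25.8 and 17.6 RPM. Nupr1 had a log2 ratio of -1.47 (-1.92 to -1.03) and Chac1 one of -1.09 (-2.04 to -0.22) at RC24, the latter from 44 reads in NT and 15 at RC24. No ER unfolded protein response gene was higher at RC4 or later, and of 13 measured 3 were lower at RC8, 1 at RC12 and 0 at RC24.

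Of 9 ubiquitin and autophagy genes measured, 6 were higher at RC4, 2 higher and 2 lower at RC8, none called at RC12 and 1 lower at RC24. Sqstm1, the autophagy receptor p62, was at 184 RPM in NT, 1419 at RC4, 459 at RC8, 192 at RC12 and 141 at RC24, and was 1.32 (1.09 to 1.55) above NT on the log2 scale at RC8. Ubb, a polyubiquitin gene, was at 241, 456, 79.4, 126 and 217 RPM. It was at a log2 ratio of 0.92 at RC4, below the 2-fold limit, and was lower than NT at RC8 (-1.60, interval -1.94 to -1.27). Against NT replicates 1 and 2 summed, the RC8 ratio of Ubb turned to 2.44. Proteasome subunit genes, 28 in number, were never called at RC4, RC8, RC12 or RC24. Their log2 ratio was above 0 for 26 at RC4, 21 at RC8, 24 at RC12 and 9 at RC24. The medians were 0.34, 0.28, 0.31 and -0.09.

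**Figure D2:**
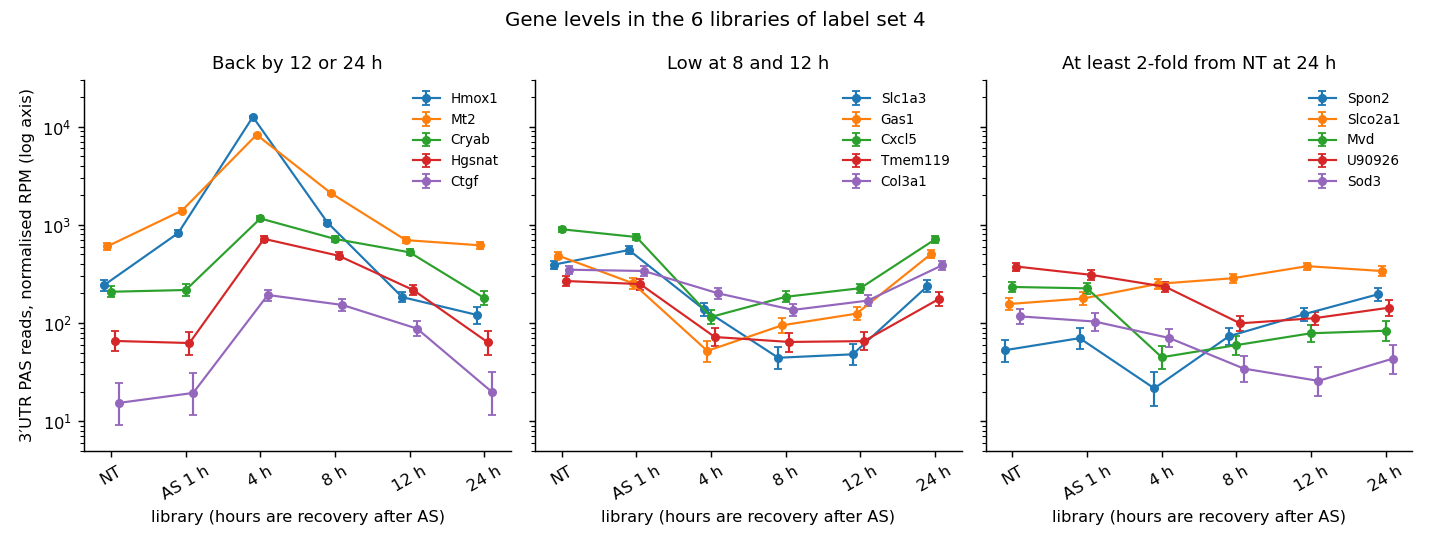
Gene abundance in RPM (log scale, y axis) in the 6 libraries of the label set, NT, AS and RC4 to RC24 (x axis), with 95% Poisson intervals of the read counts as bars. The left panel holds genes back by 12 or 24 h (Hmox1, Mt2, Cryab, Hgsnat, Ctgf), the middle panel genes low at 8 and 12 h (Slc1a3, Gas1, Cxcl5, Tmem119, Col3a1), and the right panel genes at least 2-fold from NT at 24 h (Spon2, Slco2a1, Mvd, U90926, Sod3). Hmox1 was back at RC12 (184 RPM against 241 in NT) and further below NT at RC24 (121 RPM).

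Several genes outside the classical stress lists stood out for a slow descent from RC4. Hgsnat (chr8:27054931-27087216, - strand), which acetylates heparan sulfate in the lysosome, was at 65.7 RPM in NT, 719.7 at RC4, 484 at RC8, 217 at RC12 and 63.5 at RC24. Ggct, a gamma-glutamylcyclotransferase of glutathione turnover, was at 103, 862, 587, 348 and 148 RPM. Tubb2a, a beta-tubulin, was at 93.8, 585, 448, 244 and 159.8 RPM. All 3 were at least 2-fold above NT at RC8 and RC12 and below 2-fold at RC24. At RC8 their log2 ratios were 2.88 (2.54 to 3.24), 2.51 (2.23 to 2.80) and 2.25 (1.96 to 2.56), with edgeR adjusted p of 0.00991, 0.0253 and 0.0302.

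A further group was highest at RC8 rather than RC4. Serpinb9, an inhibitor of granzyme B, was at 37.5 RPM in NT, 128 at RC4, 206 at RC8, 127 at RC12 and 74.0 at RC24. Its paralog Serpinb9b was at 27.3, 106, 187, 176 and 43.5 RPM, and reads of such paralogs may be shared. Ptgr1, a reductase that inactivates prostaglandins and leukotriene B4, was at 116, 347, 465, 384 and 148 RPM. These 3 genes were 2.46, 2.78 and 2.00 above NT on the log2 scale at RC8 and 0.98 (0.40 to 1.57), 0.67 (-0.05 to 1.40) and 0.35 (-0.01 to 0.71) at RC24. Procr, the endothelial protein C receptor, came down faster, at 42.7, 484, 200.1, 94.0 and 37.6 RPM.

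Of 19 actin and SRF genes measured, 3 were higher at RC8 and at RC12, and the median log2 ratio of the 19 was 0.04 and 0.25. Ctgf, a secreted matricellular protein, was at 15.4 RPM in NT, 193 at RC4, 153 at RC8, 87.7 at RC12 and 20.0 at RC24. Cyr61, a related matricellular protein, was at 71.7, 279, 164, 146 and 62.3 RPM. Ankrd1, a nuclear ankyrin repeat protein, was at 73.4, 67.2, 222, 188 and 83.4 RPM. Ankrd1 was at the NT level at RC4 and high only later, with a log2 ratio of 1.59 (1.24 to 1.96) at RC8. These were the 3 higher genes, and at RC24 none of the 19 was called.

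Some of the genes furthest below NT at RC8 and RC12 were nearer to it at RC24, while others, described further on, were still at least 2-fold below it. Slc1a3 (chr15:8584124-8660764, - strand), a glutamate transporter, was at 394 RPM in NT, 138 at RC4, 44.3 at RC8, 48.0 at RC12 and 237 at RC24. Gas1 (chr13:60275766-60278726, - strand), a growth-arrest protein of the cell membrane, was at 486, 52.0, 94.7, 125 and 505 RPM. Cxcl5, a chemokine that attracts neutrophils, was at 901, 115, 185, 226 and 709 RPM. Slc1a3 had its lowest level at RC8, with a log2 ratio of -3.15 (-3.57 to -2.76), whereas Gas1 and Cxcl5 had theirs at RC4. At RC24 the ratios were -0.73 (-0.98 to -0.49), 0.06 (-0.13 to 0.24) and -0.35 (-0.49 to -0.20). The RC8 ratio of Slc1a3 turned to 1.39 against NT replicates 1 and 2 summed.

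Tmem119 and some collagen genes had a similar course. Tmem119, a membrane protein of osteoblast lineage cells, was at 268 RPM in NT, 72.0 at RC4, 64.2 at RC8, 65.4 at RC12 and 175 at RC24. Col3a1, a fibrillar collagen, was at 349, 200.1, 136, 169 and 388 RPM. Col6a1, a chain of collagen VI, was at 407, 363, 192, 203 and 381 RPM. Col1a1, a chain of collagen I, was instead at 228, 84.1, 233, 235 and 263 RPM, low at RC4 and at the NT level from RC8 on. The RC8 ratio of Tmem119 turned to 0.26 against NT replicates 1 and 2 summed. Of 30 extracellular matrix genes measured, 5 were lower at RC8, 3 at RC12 and 0 at RC24, none was higher, and the median log2 ratio was -0.59, -0.40 and -0.08. The fibroblast markers, whose sum was also lower at RC8, did not move together. S100a4, Pdgfra, Pdgfrb, Thy1, Col1a2 and Col3a1 were below NT at RC8, S100a4 at 2221 RPM against 4573 in NT. Vim (787 RPM in NT, 737 at RC8), Fn1 (1407 and 1483) and Col1a1 were close to NT. The collagens and Fn1 belong to both sets, and any share of this in the matrix values was not tested.

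Cytokine and growth factor genes went in both directions at RC8, where 4 of 13 were higher and 5 lower. At RC12 the counts were 2 and 3, and at RC24 they were 0 and 1. Ccl2, a monocyte chemokine, was at 693 RPM in NT, 444 at RC4, 298 at RC8, 426 at RC12 and 834 at RC24. Ptgs2, the inducible cyclooxygenase, was at 531, 3296, 859, 583 and 288 RPM, and its ratio at RC24 was -0.88 (-1.10 to -0.67). Ereg, an EGF family ligand, was the member lower at RC24, at 46.1, 118, 21.4, 12.5 and 16.5 RPM. Against NT replicates 1 and 2 summed its RC24 log2 ratio was -0.09 and the call was lost.

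Cell cycle genes were back by RC12. Of 32 mitosis genes, 23 were lower at RC4, 1 at RC8 and 0 at RC12 and RC24, and at RC24 all 32 were within 1.5-fold of NT. The median log2 ratio was -1.38, -0.55, -0.06 and 0.02. Ccna2, cyclin A2, was at 279 RPM in NT, 52.0 at RC4, 249.8 at RC8, 281 at RC12 and 290.3 at RC24. Cdc20, an activator of the anaphase-promoting complex, was at 545, 182, 369.7, 546 and 509 RPM. DNA replication genes were less affected, with 4 of 24 lower at RC4 and none called at RC8, RC12 or RC24.

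Cholesterol synthesis genes had the lowest median at RC24 among the gene lists examined. These genes are driven by SREBP2 when cell sterols are low, and they encode the mevalonate and sterol pathways and the INSIG feedback protein. Of 18 measured, 5 were lower at RC4, 11 at RC8, 7 at RC12 and 3 at RC24, and none was higher. All 18 had ratios below 0 at RC8, RC12 and RC24, and the median log2 ratio was -1.17, -0.91 and -0.85, against -0.02, 0.00 and -0.02 over all genes. Only 1, 4 and 4 of them were within 1.5-fold of NT at the 3 times, and 1 library at each time shows this.

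Mvd (chr8:124957496-124967322, - strand), which makes isopentenyl diphosphate, was at 233 RPM in NT, 44.8 at RC4, 59.6 at RC8, 78.7 at RC12 and 83.4 at RC24. Pmvk, the kinase just before it in the pathway, was at 144, 86.5, 54.2, 41.1 and 59.9 RPM. Insig1, which retains the SREBP complex in the ER, was at 84.5, 104, 32.8, 46.6 and 36.4 RPM. These were the 3 lower genes at RC24, with log2 ratios of -1.48 (-1.88 to -1.10), -1.27 (-1.75 to -0.81) and -1.21 (-1.84 to -0.62). Against NT replicates 1 and 2 summed, Pmvk was at -0.97 and lost its call. The DESeq2 adjusted p for Mvd at RC24 was 0.00091, and the edgeR value was 0.68.

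Other steps of the pathway had come further back. Lss, the lanosterol synthase, was at 96.4 RPM in NT, 39.2 at RC4, 14.5 at RC8, 41.8 at RC12 and 62.3 at RC24, and had the lowest ratio of the group at RC8 (-2.73, interval -3.52 to -2.02). Cyp51, the lanosterol demethylase, was at 573, 704, 257, 301 and 317 RPM. At RC24 the log2 ratios of Lss and Cyp51 were -0.63 (-1.13 to -0.15) and -0.85 (-1.06 to -0.65). Acat2, a cytosolic thiolase that supplies acetoacetyl-CoA and was not on the list, was at 1072, 508, 329, 448 and 548 RPM and was named after its values were seen.

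**Figure D3:**
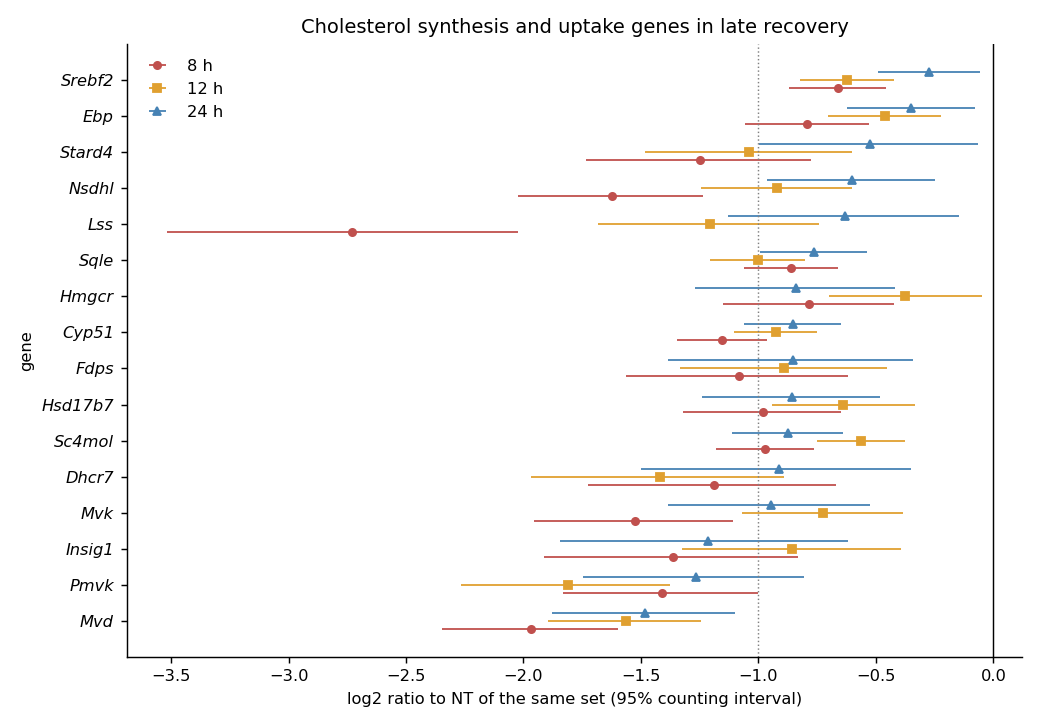
Log2 ratio to NT (x axis) of 16 of the 18 measured genes of cholesterol synthesis and uptake (y axis) at RC8, RC12 and RC24, with 95% counting intervals as bars, a solid line at 0 and a dotted line at -1. All points lie left of 0, and the medians over the 18 are -1.17, -0.91 and -0.85.

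Among genes with a mean of at least 50 RPM, Spon2, Msln and Slco2a1 had the highest ratios to NT at 24 h. Spon2 (chr5:33556167-33560887, - strand), a matrix protein of the spondin family, was at 52.9 RPM in NT, 21.6 at RC4, 73.3 at RC8, 123 at RC12 and 196 at RC24. Msln, the cell-surface protein mesothelin, was at 40.9, 56.0, 54.2, 85.6 and 110.5 RPM. Slco2a1 (chr9:102910817-102990179, + strand), a prostaglandin transporter, was at 156, 251, 286, 379 and 338 RPM. Spon2 and Msln stepped up from RC8 to RC24, with log2 ratios of 1.89 (1.46 to 2.34) and 1.43 (0.92 to 1.96), and Slco2a1 was at 1.12 (0.84 to 1.39). The DESeq2 adjusted p at RC24 was 6.3e-05 for Spon2, 0.0037 for Msln and 0.0016 for Slco2a1, and edgeR gave 0.68 for each. Set against NT replicates 1 and 2 summed, the ratio turned to -1.69 for Spon2 and -1.24 for Msln. That of Slco2a1 fell to 0.28 and its call was lost.

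Angptl2, a secreted angiopoietin-like protein, was at 289 RPM in NT, 521 at RC4, 597 at RC8, 526 at RC12 and 583 at RC24. Hn1 was at 123, 229.8, 239, 255 and 247 RPM. Both were close to 2-fold above NT at RC24, at 1.01 (0.81 to 1.21) and 1.01 (0.69 to 1.32), and that of Hn1 turned to -0.39 against NT replicates 1 and 2 summed. Ngef, a guanine nucleotide exchange factor, had the highest of the ratios named here, 2.12 (1.19 to 3.14), but rested on 13 reads in NT and 41 at RC24.

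The 82 genes lower at 24 h outnumbered the 59 higher ones, but with scaling by total PAS reads the order turned (70 lower and 75 higher). Sod3 (chr5:52755185-52762644, + strand), the extracellular superoxide dismutase, was at 117 RPM in NT, 70.4 at RC4, 34.4 at RC8, 25.8 at RC12 and 43.5 at RC24. U90926 (chr5:92638922-92644434, - strand), a gene of little known function, was at 376, 234, 99.3, 112 and 143 RPM. Atp1b1, the beta subunit of the sodium pump, was at 148, 115, 71.8, 63.4 and 55.2 RPM. These 3 were lower at all late times, and at RC24 their log2 ratios were -1.43 (-1.99 to -0.89), -1.39 (-1.69 to -1.10) and -1.43 (-1.92 to -0.95). Cyp26b1, which degrades retinoic acid, and Bpgm, which makes the hemoglobin ligand bisphosphoglycerate, were also lower at all 3 times, with -1.16 each at RC24 (-1.68 to -0.65 and -1.70 to -0.64). Against NT replicates 1 and 2 summed the ratios turned positive, to 0.62 for Sod3, 2.47 for U90926, 0.98 for Atp1b1 and 1.11 for Bpgm. That of Cyp26b1 was -0.37 and its call was lost.

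Of 18 immediate early genes measured, 3 were lower at RC24, 13 were within 1.5-fold of NT and none was higher. Dusp1, a phosphatase of MAP kinases, was at 208 RPM in NT, 227 at RC4, 92.4 at RC8, 101 at RC12 and 83.4 at RC24. Ier3, an early response protein that modulates survival, was at 1681, 1904, 794, 1074 and 832 RPM. Nr4a1, an orphan nuclear receptor, was at 195, 128, 69.5, 97.5 and 95.2 RPM. These were the 3 lower genes, and the median log2 ratio of the 18 was -0.18. At RC24 the log2 ratios were -1.32 (-1.72 to -0.93), -1.01 (-1.14 to -0.89) and -1.03 (-1.41 to -0.66). Against NT replicates 1 and 2 summed they were -0.01, -0.05 and -0.24, and the calls were lost. With scaling by total PAS reads, Ier3 (-0.97) and Nr4a1 (-0.98) fell short of 2-fold. Klf2, a zinc finger transcription factor, was instead high at RC12 (88.7 RPM in NT, 224 at RC12) and back at RC24 (81.1 RPM).

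The return was next followed in genes chosen from other libraries. RNA-seq of the same cell line, at 4 h of recovery against non-treated cells at 4 h, gave 1089 genes at least 2-fold higher and 631 lower, of which 725 and 409 were measured here. The entry libraries and those read out share no sample, although both follow the same stress. Of the 725 higher genes, 326 were still at least 2-fold above NT at RC4, 83 at RC8 (11.4%), 32 at RC12 (4.41%) and 6 at RC24 (0.828%). The share over all genes at the same fold was 3.79%, 1.57% and 0.994%, so at RC24 the share of early-induced genes was close to that of all genes. Their median log2 ratio was 0.90, 0.29, 0.09 and -0.04.

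The early-reduced genes came back over the same hours. Of 409, 130 were at least 2-fold below NT at RC4, 32 at RC8 (7.82%), 15 at RC12 (3.67%) and 3 at RC24 (0.733%, against 1.40% over all genes). Their median was -0.71, -0.14, -0.11 and -0.01. The 6 induced genes at least 2-fold above NT at RC24 included Gtpbp4, Obfc1, Rpf1, Stambpl1 and l7Rn6, and the 3 reduced genes at least 2-fold below it were Klhl23, Pcnt and Tns1. Among them, Tns1, a focal adhesion protein, was at 76.8 RPM in NT, 60.0 at RC4, 45.8 at RC8, 40.4 at RC12 and 35.3 at RC24, further from NT at each time. Not all of these had stayed away from NT throughout, as the log2 ratio was 0.54 for Gtpbp4 at RC12 and 0.45 for l7Rn6 at RC8. Klhl23 was at 0.53 at RC8, 0.01 at RC12 and -1.65 at RC24, and rested on 26 reads in NT and 6 at RC24.

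**Figure D4:**
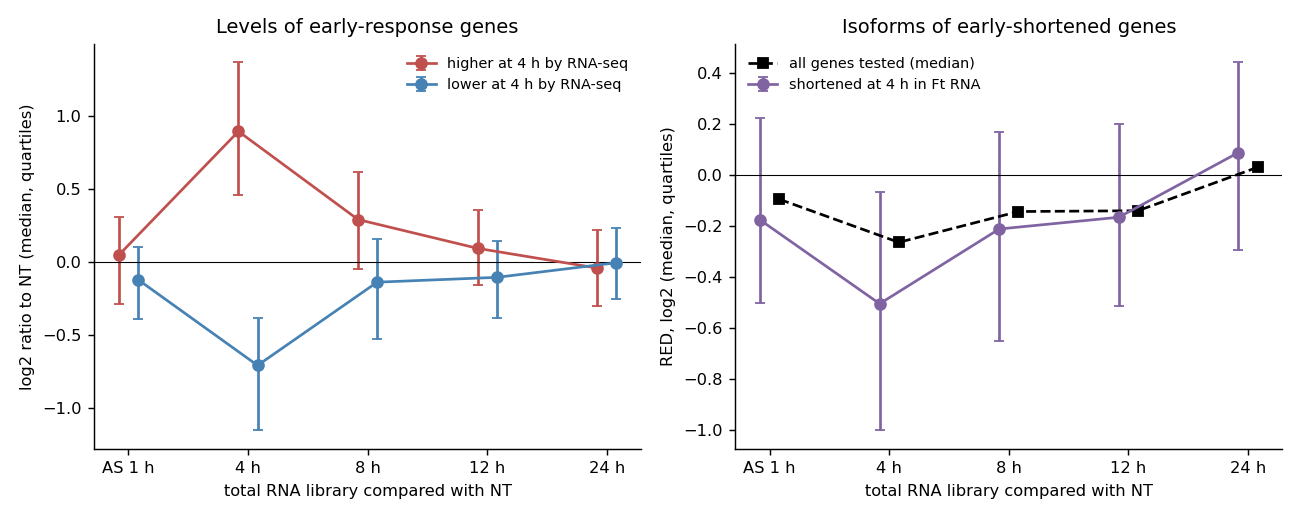
Left, median log2 ratio to NT (points) with quartiles (bars) at RC4 to RC24 for the 725 and 409 genes higher or lower at 4 h in RNA-seq, and right, median RED of genes shortened in the Ft fraction and of all genes at the same times. The induced genes go from 0.90 at RC4 to -0.04 at RC24, and the shortened genes from -0.50 to 0.09.

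3′UTR isoforms were compared by the pPAS and dPAS of each gene, its 2 most abundant 3′UTR PASs. RED is log2(dPAS/pPAS) in the recovering library minus that in NT, so that negative values mean shorter 3′UTRs. A pair was defined for 6429 genes, 2489 had more than 5 reads of each isoform at some late time, and 1828 at all 3. A 3′UTR was called changed when Fisher's exact test on the reads gave p below 0.05 with a change of over 5 percentage points, which compares 2 libraries and not 2 conditions.

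Shortened 3′UTRs outnumbered lengthened ones at RC8 and RC12, and the order was turned at RC24. At RC8, 162 of 2302 genes were shortened and 49 lengthened (7.04% and 2.13%). At RC12 the numbers were 127 and 51 of 2325 (5.46% and 2.19%), and at RC24 they were 54 and 77 of 1944 (2.78% and 3.96%). RC4 had 281 shortened and 46 lengthened genes of 2218 (12.7% and 2.07%). After Benjamini-Hochberg adjustment of the Fisher p, 30 and 3 genes were left at RC8, 11 and 3 at RC12, and 3 and 1 at RC24. In edgeR's test of isoform by condition over the 10 libraries, 0 genes passed at any late time, with 247, 239 and 287 of 3799 at an unadjusted p under 0.05.

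The median RED was -0.26 at RC4, -0.14 at RC8, -0.14 at RC12 and 0.03 at RC24. The same measure between the 3 NT libraries of the series was 0.04, -0.13 and -0.16 (SD 0.104, 3 comparisons), and 53.7%, 56.3% and 48.1% of genes were called changed in them. The medians at RC8, RC12 and RC24 were thus within the range seen between NT libraries of different label sets, and that at RC4 was outside it. Compared directly, RC24 had 147 genes lengthened and 37 shortened relative to RC8 (7.45% and 1.88%), with a median RED of 0.17. RC12 and RC8 differed little in either direction, with 71 lengthened and 58 shortened (2.86% and 2.33%).

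Like gene abundance, most isoform differences at RC8 were not seen at RC24. Among the 1828 genes measured at all 3 times, 159 were shortened at RC8, of which 64 were shortened at RC12 and 25 at RC24. Of 47 lengthened at RC8, 10 were lengthened at RC12 and 11 at RC24. Among the 3 late times, 56 of the 77 genes lengthened at RC24 were called at RC24 alone, against 24 of the 54 shortened. Also lengthened at RC8 were 11 of the 77, against 47 of all 1828 genes. Also shortened at RC8 were 25 of the 54, against 159 of all 1828.

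The spread of RED with aUTR size was narrower at late times than at 4 h. Genes were split into 5 bins by aUTR size, and the median RED of the bin with the longest aUTRs was -0.63 at RC4, -0.22 at RC8, -0.16 at RC12 and 0.15 at RC24. The difference between that bin and the bin with the shortest aUTRs was -0.52, -0.18, -0.16 and 0.11. Between NT libraries it was -0.15, 0.12 and 0.15 (SD 0.166). The late values lay close to this range and the RC4 value well outside it. The lengthened genes at RC24 had a median aUTR of 918 nt, against 568.5 nt over all genes tested, and the shortened genes at RC8 one of 1026 nt against 573 nt. AATAAA was found within 45 nt upstream of the dPAS in 77.8% of the genes shortened at RC8 and in 63.2% of all genes tested. These sizes and shares are descriptions and were not tested.

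**Figure D5:**
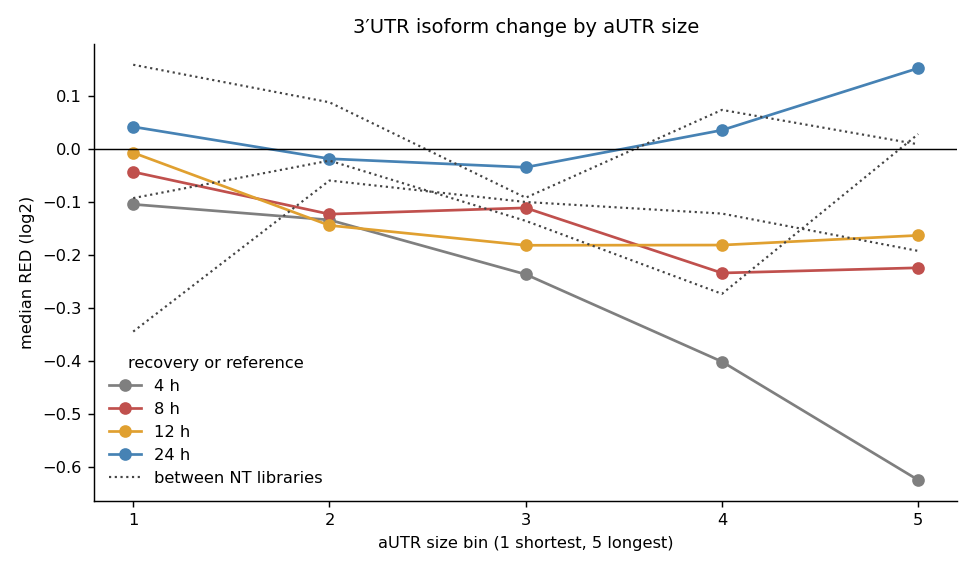
Median RED against NT (y axis) in 5 bins of aUTR size from shortest to longest (x axis) at RC4, RC8, RC12 and RC24, with dotted lines for the 3 comparisons between NT libraries. The bin of longest aUTRs goes from -0.63 at RC4 to 0.15 at RC24, and the late lines lie within or near the dotted ones.

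Nmt1, which attaches myristate to proteins, had an aUTR of 2807 nt between the 2 PASs shown above. Its dPAS share was 90.2% in NT (Wilson 95% interval 83.3 to 94.4%), 47.1% at RC4 (37.7 to 56.7%), 72.3% at RC8 (64.1 to 79.3%), 84.3% at RC12 (76.9 to 89.6%) and 85.4% at RC24 (76.1 to 91.4%). It was shortened at RC8 (RED -1.81, Fisher's exact p = 0.000535) and not called at RC12 or RC24, while NT replicates 1 and 2 had shares of 39.7% and 73.4%, and against their sum the RED turned to 0.78. Dnajb1 followed the same course more slowly, with a dPAS share of 79.1% in NT, 47.5% at RC4, 58.7% at RC8, 65.4% at RC12 and 72.7% at RC24. It was shortened at RC8 (RED -1.41) and RC12 (RED -1.0, Fisher's exact p = 0.00855), although its abundance was already within 1.5-fold of NT at RC8.

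Timp2, an inhibitor of matrix metalloproteinases, was shortest at RC8. Its dPAS share was 64.3% in NT (60.4 to 67.9%), 52.7% at RC4, 46.7% at RC8 (42.6 to 50.8%), 60.7% at RC12 and 58.7% at RC24 (54.0 to 63.1%). The difference at RC8 had the lowest p of the named genes (RED -1.04, Fisher's exact p = 1.45e-09), and at RC24 it was not called (p = 0.0641). Ube2q1, a ubiquitin-conjugating enzyme that mainly used its pPAS, had dPAS shares of 9.13% in NT, 3.47% at RC4, 2.59% at RC8, 5.33% at RC12 and 8.07% at RC24, and its RC8 RED turned to 1.48 against NT replicates 1 and 2 summed. Hspa4l had shares of 53.8%, 39.0%, 48.1%, 56.3% and 54.2%, and was not called at RC24, where its abundance against NT replicate 4 was low. Rpl22, a ribosomal protein, was not called at any of the late times.

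Other genes were called shortened at 24 h. Rps3, a ribosomal protein of the small subunit, had a dPAS share of 71.8% in NT (63.9 to 78.6%), 33.3% at RC4, 52.3% at RC8, 46.8% at RC12 and 41.7% at RC24 (32.3 to 51.7%). The difference at RC24 was a RED of -1.84 (Fisher's exact p = 4.17e-06, adjusted 0.00309). In NT replicates 1 and 2 the share was 2.28% and 84.2%, a wider span than any time difference here. Cript, a binding partner of postsynaptic scaffold proteins, had shares of 90.4%, 75%, 84.3%, 69.9% and 68.0%, and St3gal1, a sialyltransferase, had 90.5%, 68.4%, 70.0%, 81.1% and 75.8%. Cript was not called at RC8 (p = 0.274) and St3gal1 not at RC12 (p = 0.125), by Fisher's exact test. Against NT replicates 1 and 2 summed, the RED turned to 1.28 for Rps3 and 1.33 for Cript at RC24 and to 4.07 for St3gal1 at RC8. Alg2, a mannosyltransferase of N-glycan synthesis, was shortened at all 3 times, but its PASs are 37 nt apart and it had 37 reads at the 2 sites in NT.

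Other genes were furthest from NT at RC12. Zfp706, a small zinc finger protein, had dPAS shares of 40.2% in NT, 21.7% at RC4, 22.2% at RC8, 17.0% at RC12 and 32.1% at RC24. Yif1a, which takes part in ER to Golgi transport, had 8.20%, 5.83%, 4.86%, 1.58% and 4.88%, and Sucla2, a subunit of a succinyl-CoA ligase, had 31.2%, 27.0%, 22.4%, 9.84% and 23.4%. All 3 were shortened against NT replicate 4 at RC12 (REDs of -1.72, -2.48 and -2.06) and not called at RC24. In NT replicates 1 and 2 the Sucla2 share was 5.66% and 11.01%, so its RC12 share lay between those of untreated libraries. The shares there were 97.3% and 90.2% for Zfp706 and 13.6% and 14.3% for Yif1a. Against NT replicates 1 and 2 summed, Zfp706 and Yif1a kept their calls at RC12 (REDs of -5.98 and -3.37).

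Lengthened 3′UTRs at RC24 included Bag5 and Ccnd1. Bag5, a co-chaperone of HSP70, had a dPAS share of 71.1% in NT (63.4 to 77.7%), 78.6% at RC4, 75.8% at RC8, 88.0% at RC12 and 89.8% at RC24 (82.2 to 94.4%). Ccnd1, cyclin D1, had shares of 21.7% in NT (12.3 to 35.6%), 33.3%, 26.7%, 44.2% and 53.6% at RC24 (35.8 to 70.5%). Both were called at RC12 and RC24, at RC24 with a RED of 1.84 (Fisher's exact p = 0.000459, adjusted 0.0812) for Bag5 and of 2.05 (p = 0.0104, adjusted 0.348) for Ccnd1. Ccnd1 had 46 reads at the 2 sites in NT and 28 at RC24. Cdc27, a subunit of the anaphase-promoting complex, had shares of 15.4%, 18.2%, 30.5%, 39.1% and 35.6% and was also lengthened at RC12 and RC24. Against NT replicates 1 and 2 summed, the RED turned to -0.87 for Ccnd1 at RC24 and to -0.98 for Cdc27 at RC12.

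The isoform return was also followed in genes chosen from another fraction. In the Ft fraction, the RNA that carries no 4sU label and is therefore mostly older, 841 of 2971 genes had shortened 3′UTRs at 4 h of recovery by the same rule. In total RNA their median RED was -0.50 at RC4 (620 genes measured), -0.21 at RC8 (628), -0.16 at RC12 (622) and 0.09 at RC24 (555). The medians of all genes at the 3 late times were -0.14, -0.14 and 0.03. The genes called shortened among them were 81 at RC8 (12.9%), 50 at RC12 (8.04%) and 17 at RC24 (3.06%), and at RC24 41 were lengthened (7.39%, against 3.96% of all genes tested). The median of the early-shortened genes at RC24 was thus slightly above 0. Between NT libraries the medians over all genes were 0.04, -0.13 and -0.16. Their sign depends on which library is put first, so they do not place 0.09 outside the NT spread.

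The lists of 3′ end processing factors and of RNA-binding proteins are short, so their counts do not set them apart from all genes. Over all genes, 3.54% were lower at RC8 and 2.07% at RC12. The log2 ratios of the processing factors ranged from -1.61 to 0.67 at RC8 and from -0.85 to 0.998 at RC24. Of 12 cleavage and polyadenylation factor genes measured, 1 was lower at RC8 and at RC12, which was Cstf2t, and none was called at RC24. Of 12 genes for U-rich element binding and stress granule proteins, 1 was lower at RC8 and none was called at RC12 or RC24. Cstf2, the CstF subunit that binds downstream of the PAS, had a dPAS share of 30.0% in NT, 60.0% at RC8, 43.5% at RC12 and 31.0% at RC24, with 20 reads at the 2 sites in NT, and its RC8 RED turned to -0.98 against NT replicates 1 and 2 summed.

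Among housekeeping groups, most ribosomal protein and respiratory chain genes lay slightly below NT at RC8 and RC12. None of the 51 ribosomal protein genes was called at RC24, with 2 lower at RC8 and 3 at RC12, and none of the 66 respiratory chain genes, with 3 lower at RC8 and 1 at RC12. Over all genes, 3.54% were lower at RC8, 2.07% at RC12 and 1.38% at RC24. Counts this small do not set these groups apart from all genes. The ratio was below 0 for 42 of the 51 ribosomal protein genes at RC8, 45 at RC12 and 32 at RC24, with median log2 ratios of -0.22, -0.21 and -0.05. It was below 0 for 60 of the 66 respiratory chain genes at RC8, 55 at RC12 and 28 at RC24, with medians of -0.34, -0.18 and 0.04. Of 19 aminoacyl-tRNA synthetase genes, 4 were higher at RC4, 1 was higher and 1 lower at RC8, and none was called at RC12 or RC24.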

How the data were processed

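Total RNA of NIH3T3 cells was profiled by 3′READS, and the series holds 38 such libraries among its 42 samples. After trimming (Cutadapt) and mapping to mm9 (Bowtie2), the authors kept reads with untemplated Ts, clustered the PASs and deposited raw read counts per PAS. A library's file lists a PAS from 5 reads up. RNA-seq gene counts, mapped by the authors with STAR, were used only to choose early-response genes. Tool versions are not given in the sources used here.

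The files hold 99725 PAS positions and name no genes. Positions within 24 nt were joined into 83916 clusters, and 44411 of these were assigned to 3′UTRs of 12890 protein-coding genes of GENCODE M1 (NCBIM37), or up to 4000 nt past an annotated end (26.4%). Mitochondrial genes and 121 ambiguous clusters were left out.

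Groups came from the labels, which do not say whether libraries came from separate cultures. A mean of at least 20 RPM over NT, RC8, RC12 and RC24 was required for abundance. Log2 ratios have exact (Clopper-Pearson) 95% counting intervals. In the alternative without a filter on low counts only, 0.5 was added where a count was 0. PCR copies are not independent molecules, so intervals cover counting error only. Fisher's exact test was two-sided. edgeR (4.0.16, TMM, quasi-likelihood, Benjamini-Hochberg adjusted) used all 10 total RNA libraries, with 2 residual degrees of freedom, and DESeq2 (1.42.0) was the alternative. RNA-seq entry genes had a mean of at least 10 RPM and at least 2-fold change. NT and AS libraries with the same number deviated together (r = 0.866, 0.847 and 0.797 for replicates 1, 2 and 4), so the replicate number was a block. Scripts in R 4.3.3 and Python 3.11.15 were tested on simulated data.

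The members and gene lists were chosen with earlier results of these data known. Genes were named where they were among the 10 furthest up or down at a time with a mean of at least 50 RPM, among the 8 up or down at all 3 times with the largest smallest change, called list members or list members with many reads, and for isoforms among the 6 lowest or highest REDs at a time or genes named by the study. A few genes that met this rule are not reported here by name, although counts and medians include them. Alternatives changed the scaling, the filter, the PASs counted, the NT library, the read minimum, the PAS distance and pair, the entry set, the block, the tool and each replicate.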

Additional observations from a re-analysis of the deposited data

Results flagged for a closer look

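Zfand2a, an AN1 zinc finger gene induced by arsenite, was picked out because it stood on opposite sides of NT at 2 late times. It was at 38.4 RPM in NT, 369.9 at RC4, 112 at RC8, 52.9 at RC12 and 18.8 at RC24. The log2 ratio was 1.55 (counting interval 1.06 to 2.06) at RC8 and -1.03 (-1.95 to -0.18) at RC24, from 45 reads in NT and 16 at RC24. It was the only gene of the 5935 called higher at 1 late time and lower at another. Its RC24 ratio lost the call with scaling by total PAS reads (-0.98) and against NT replicates 1 and 2 summed (-0.68). The difference between the times was not tested, since each time had 1 library.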

How the results depend on the processing

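Of 261 alternative values of the main results, 183 were within 1.5 times the reported value or within the spread, and 78 moved further. The cause of these moves was not tested beyond what each setting does by construction. Depth limits genes with few reads: without a filter on low counts, genes higher and lower numbered 758 and 500 at RC8, 442 and 396 at RC12, and 397 and 413 at RC24, and at a mean of 50 RPM they numbered 93 and 117, 33 and 64, and 10 and 23. At 50 RPM the late libraries were apart for 83 and 87 genes (RC24 higher and lower than RC8), 9 and 16 (RC12 against RC8) and 30 and 30 (RC24 against RC12).

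The choice of NT library decided most. Against NT replicates 1 and 2 summed, 1400 and 1084 genes were higher and lower at RC8, 1344 and 1032 at RC12, and 1328 and 1059 at RC24. Shortened and lengthened genes became 788 and 692, 781 and 715, and 523 and 597. Early-induced genes still 2-fold up became 235, 200 and 171, and early-reduced genes 93, 82 and 72. The median RED of early-shortened genes at RC8 became -0.33. Of 57 named abundance ratios 31 kept their call, 14 lost it and 12 turned: Gsta4 (RC12) -1.27, Ubb (RC8) 2.44, Slc1a3 (RC8) 1.39, Tmem119 (RC8) 0.26, and at RC24 Hspa4l 1.77, Spon2 -1.69, Msln -1.24, Hn1 -0.39, Sod3 0.62, U90926 2.47, Atp1b1 0.98 and Bpgm 1.11. Of 18 named isoform ratios 8 turned: St3gal1 4.07, Ube2q1 1.48, Nmt1 0.78 and Cstf2 -0.98 (RC8), Cdc27 -0.98 (RC12), and Rps3 1.28, Ccnd1 -0.87 and Cript 1.33 (RC24). Among the abundance ratios that lost their call were Srxn1 0.35, Asns 0.52, Ankrd1 0.30, Hspa1b 0.77 and Ccl2 -0.17 at RC8. At RC24 they included Slco2a1 0.28, Cyp26b1 -0.37, Ereg -0.09 and Pmvk -0.97. With TMM 54 of the 57 kept their call, with total reads 53, and none turned.

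In edgeR, the fit without the replicate block called 0 genes higher at RC8, and median-ratio scaling called 8 higher and 6 lower; the block changed no other call. Leaving out 1 NT or AS library gave 3 to 29 genes higher and 0 to 35 lower at RC8, 0 to 8 and 0 to 14 at RC12, and 0 at RC24. The extremes came without NT replicate 4 (29 and 13 at RC8, 5 and 3 at RC12) and without AS replicate 4 (23 and 35, 8 and 14), and 13 and 7 were called at RC8 without either replicate 2. The lone late libraries are assumed to vary like the others. DESeq2 called 122 and 158, 34 and 60, and 4 and 11.

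For isoforms, more than 20 reads left 94 and 25, 75 and 26, and 28 and 46 genes shortened and lengthened, and Benjamini-Hochberg adjustment 30 and 3, 11 and 3, and 3 and 1. An equal depth of 1000000 reads a library, chosen after seeing the data, gave 78.2 and 27.6 at RC12 (means of 20 draws). With entry by total RNA at RC4, which shares NT with the readout, 140, 58 and 21 genes were still up and 57, 35 and 16 still down.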
